A study of Mus musculus with 6 samples.

Results

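The genes described are the 10 that encode the TGF-beta ligands (Tgfb1, Tgfb2, Tgfb3), their receptors (Tgfbr1, Tgfbr2, Tgfbr3) and the latent TGF-beta binding proteins (Ltbp1, Ltbp2, Ltbp3, Ltbp4). They were chosen by gene symbol from the 31815 genes of the deposited count table. Each symbol stood on 1 row, and all 10 were among the 15462 genes abundant enough to be tested. The libraries hold RNA of sorted cells from the kidney cortex and outer medulla of male mice, 9 to 12 weeks old, 6 days after both kidneys had been injured by ischemia and reperfusion, in which the blood flow is stopped and then restored. All mice carried Axin2CreERT2/+:R26RtdT/+:Acta2-GFP and all received tamoxifen on days 2 and 4. From each of kidneys 1, 2 and 3 the sort gave a tdT+GFP+ and a tdT-GFP+ library, so that n was 3 for both sorts. The labels do not say whether these kidneys came from 3 mice, so the p-values measure the spread between kidneys. The Cre recombinase sits in Axin2, a feedback target of canonical Wnt signalling, so the red tdT label marks cells in which Axin2 was in use around the tamoxifen days and in which the recombination worked. The GFP is driven by Acta2, the smooth muscle actin gene, which is used by myofibroblasts and also by vascular smooth muscle and pericytes. No uninjured group was analysed here, so the comparison is between GFP+ cells with and without the Axin2 label inside injured kidneys.

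TGF-beta is the best known inducer of myofibroblasts and of scar matrix in the injured kidney. Its ligands are made as latent complexes in which the propeptide stays wrapped around the growth factor, and the latent TGF-beta binding proteins tether most of these complexes to fibrillin and fibronectin in the matrix. Integrins or proteases release the ligand, which then binds the type II receptor (Tgfbr2). The type II receptor phosphorylates the type I receptor (Tgfbr1), which in turn phosphorylates Smad2 and Smad3. The proteoglycan betaglycan (Tgfbr3) presents ligand, above all TGF-beta 2, to the signalling receptors.

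The 250 bases before a start site are given for the most abundant ligand gene and for both signalling receptor genes. They come from RefSeq on GRCm38.p6, 5′ to 3′ on the strand of the gene, and capitals mark each GC box (GGGCGG on either strand), the usual site of Sp1-type factors. The Tgfb1 window lies at chr7:25686752-25687001 on the plus strand, the Tgfbr1 window at chr4:47352972-47353221 on the plus strand and the Tgfbr2 window at chr9:116175364-116175613 on the minus strand.
Tgfb1: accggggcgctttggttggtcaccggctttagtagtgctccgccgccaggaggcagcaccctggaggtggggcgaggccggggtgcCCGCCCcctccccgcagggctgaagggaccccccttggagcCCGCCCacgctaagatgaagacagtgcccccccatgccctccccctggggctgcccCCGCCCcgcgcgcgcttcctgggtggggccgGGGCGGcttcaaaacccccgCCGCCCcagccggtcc
Tgfbr1: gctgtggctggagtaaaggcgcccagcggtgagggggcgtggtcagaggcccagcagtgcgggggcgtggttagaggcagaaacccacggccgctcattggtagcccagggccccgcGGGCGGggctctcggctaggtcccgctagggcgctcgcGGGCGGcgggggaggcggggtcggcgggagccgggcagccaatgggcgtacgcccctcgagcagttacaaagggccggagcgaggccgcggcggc
Tgfbr2: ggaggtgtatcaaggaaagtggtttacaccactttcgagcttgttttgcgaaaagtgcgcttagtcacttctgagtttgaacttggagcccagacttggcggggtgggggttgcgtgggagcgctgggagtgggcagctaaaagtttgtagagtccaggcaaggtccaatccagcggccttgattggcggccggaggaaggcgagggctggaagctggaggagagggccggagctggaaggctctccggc
The Tgfb1 window held 5 GC boxes, the Tgfbr1 window 2 and the Tgfbr2 window 0, with a GC content of 75.2%, 74.8% and 58.4%. Over the 12 RefSeq start windows found for 8 of the 10 genes, some of which overlap, GGGCGG was present in 6 when all 250 bases were searched, those inside annotated exons included, against 32.7% of all 32851 windows of this length. The letters CAGACA, a Smad-binding sequence, were present on either strand in 3 of the 12 (17.1% of all windows). The AP-1 letters TGANTCA, the TEAD letters GGAATG and the TCF/LEF letters CTTTGA were present in 0 of the 12, against 6.75%, 12.6% and 13.8% of all windows. The Tgfb2 window and the second Tgfbr1 window held no GC box, and all 3 Ltbp4 windows held at least 1. These matches describe the letters in these windows only.

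The 6 libraries held 25697348 to 33029933 counts, and each of the 10 genes had between 1042 and 20733 counts in every library, so that counting error was at most 3.1% of a value and the spread between libraries set the precision. The 10 fibroblast and myofibroblast markers, which include Acta2, Pdgfrb and Col1a1, summed to 57217 to 64675 CPM, the usual unit for counts scaled to the size of the library (here TMM-scaled), in the tdT+GFP+ libraries and to 44058 to 65904 CPM in the tdT-GFP+ ones. Most of each sum came from the collagen genes Col1a1, Col1a2 and Col3a1. In tdT+GFP+ replicate 1 these stood at 20791, 14079 and 18256 CPM, beside 1577 for Acta2 and 1481 for Pdgfrb. Markers of other cells were present too. The 12 endothelial markers summed to 669 to 1211 CPM in tdT+GFP+ and 1342 to 2892 CPM in tdT-GFP+ libraries, and all 12 had negative fold changes (median log2 -1.3). The 10 mural cell markers summed to 1113 to 1337 against 1352 to 2177 CPM (9 of 10 negative), the 12 macrophage and leukocyte markers to 544 to 1867 against 491 to 1300 CPM (1 of 12 negative), and the 12 tubule markers to 588 to 944 against 855 to 2053 CPM (9 of 12 negative). The direction of the macrophage and leukocyte markers differed by kidney, with libraries matched by the kidney numbers of the labels. Their median log2 difference, tdT+GFP+ minus tdT-GFP+, was 0.93, 1.91 and -1.14 in kidneys 1, 2 and 3. None of the endothelial, mural, macrophage or tubule markers was at 0 in any library. In bulk RNA from a sort, fewer cells of a type and less RNA per cell cannot be told apart. Axin2 mRNA itself, at 52.8, 29.7 and 64.2 CPM in tdT+GFP+ and 43.0, 64.2 and 27.3 CPM in the tdT-GFP+ ones (replicates 1, 2 and 3), overlapped between the sorts (log2 fold change 0.12, SE 0.38, adjusted p = 0.907 by the edgeR quasi-likelihood test). Libraries are listed below in the order of kidneys 1, 2 and 3, and a positive log2 fold change means a higher value in tdT+GFP+ cells. Every statement per kidney rests on the labels' numbers. Deviations from the group means correlated by -0.578 and -0.304 for the matched libraries of kidneys 2 and 3. Crossed between these kidneys, they correlated by 0.448 and 0.444, so directions per kidney are uncertain where the sorts overlap.

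All 10 genes were expressed at substantial levels in both sorts, and none passed the test for a difference between them. The type I receptor gene Tgfbr1 had the widest difference, with more RNA in tdT+GFP+ cells of every kidney, and the latent binding protein genes Ltbp3 and Ltbp4 had slightly less in every kidney. The ligand genes differed little and in directions that varied between kidneys. At an adjusted p under 0.05 (edgeR quasi-likelihood test, Benjamini-Hochberg over all genes tested) 0 of the 10 genes passed, as did 0% of all genes tested, and the adjusted p of the 10 ran from 0.442 to 0.927. At an unadjusted p under 0.05, 0 of the 10 were higher and 2 lower, beside 3.71% and 6.97% of all genes. DESeq2 called 0 of the 10 (1.69% of all genes) and 0 of the 10 with the kidney as a block (1.86% of all genes). The values of 2 of the 10 (Ltbp3 and Ltbp4) did not overlap between the sorts in the lower direction and 0 in the higher direction, beside 8.6% and 7.23% of all genes. The 10 log2 fold changes, 5 positive and 5 negative, had a median of 0.05, and that of all genes was -0.0004.

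**Figure D1:**
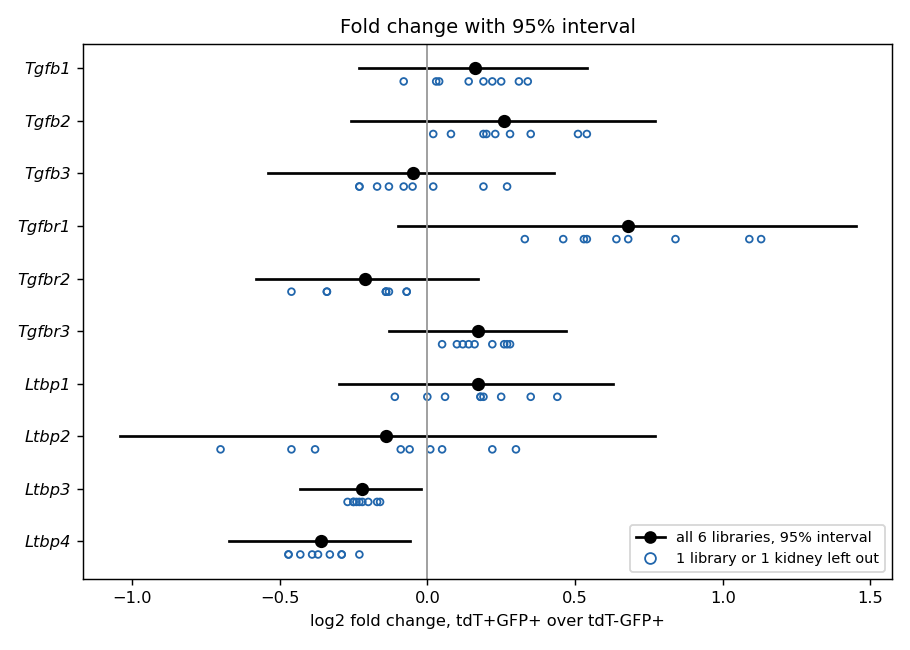
Log2 fold change of each gene (black point, all 6 libraries, edgeR) with its 95% interval, and the same value with 1 library or both libraries of 1 kidney left out (open blue circles). The intervals of Ltbp3 and Ltbp4 lie below 0 before adjustment, that of Tgfbr1 is centred on 0.68, and those of Tgfb1, Tgfb3, Ltbp1 and Ltbp2 have left-out values on both sides of 0.

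Tgfb1 supplied most of the ligand RNA in every library. Tgfb1 (ENSMUSG00000002603.15, GRCm38 chromosome 7, 25687002 to 25705077, plus strand), the main TGF-beta of injured kidney, stood at 411, 496 and 376 CPM in tdT+GFP+ and 455, 323 and 372 CPM in tdT-GFP+ libraries. The sorts overlapped, and the highest and lowest values both came from kidney 2. edgeR gave a log2 fold change of 0.16 (SE 0.16, interval at 95% from -0.23 to 0.54) with an adjusted p of 0.694, and -0.08 without both libraries of kidney 2. Tgfb2 (ENSMUSG00000039239.14, chromosome 1, 186622792 to 186705989, minus strand), the isoform that depends most on betaglycan, stood at 64.7, 66.7 and 54.0 CPM in tdT+GFP+ and 69.1, 38.9 and 47.1 CPM in tdT-GFP+ libraries. The tdT+GFP+ values lay inside the range of the tdT-GFP+ values. The estimate was 0.26 on the log2 scale (SE 0.21, interval -0.26 to 0.77) with an adjusted p of 0.628 by edgeR, 0.02 when kidney 2 was left out and 0.54 when the tdT-GFP+ library of kidney 1 was. Tgfb3 (ENSMUSG00000021253.7, chromosome 12, 86056745 to 86079041, minus strand), known from palate fusion and from stromal cells, stood at 65.4, 72.4 and 81.6 CPM against 98.0, 56.5 and 73.2 CPM. The highest and the lowest of the 6 values were both tdT-GFP+ libraries. Its fold change was close to none (log2 -0.05, SE 0.20, interval -0.54 to 0.43, edgeR adjusted p = 0.927) and its sign hung on kidney 1: it turned to 0.02 without the tdT+GFP+ library of that kidney, 0.19 without the tdT-GFP+ one and 0.27 without both.

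**Figure D2:**
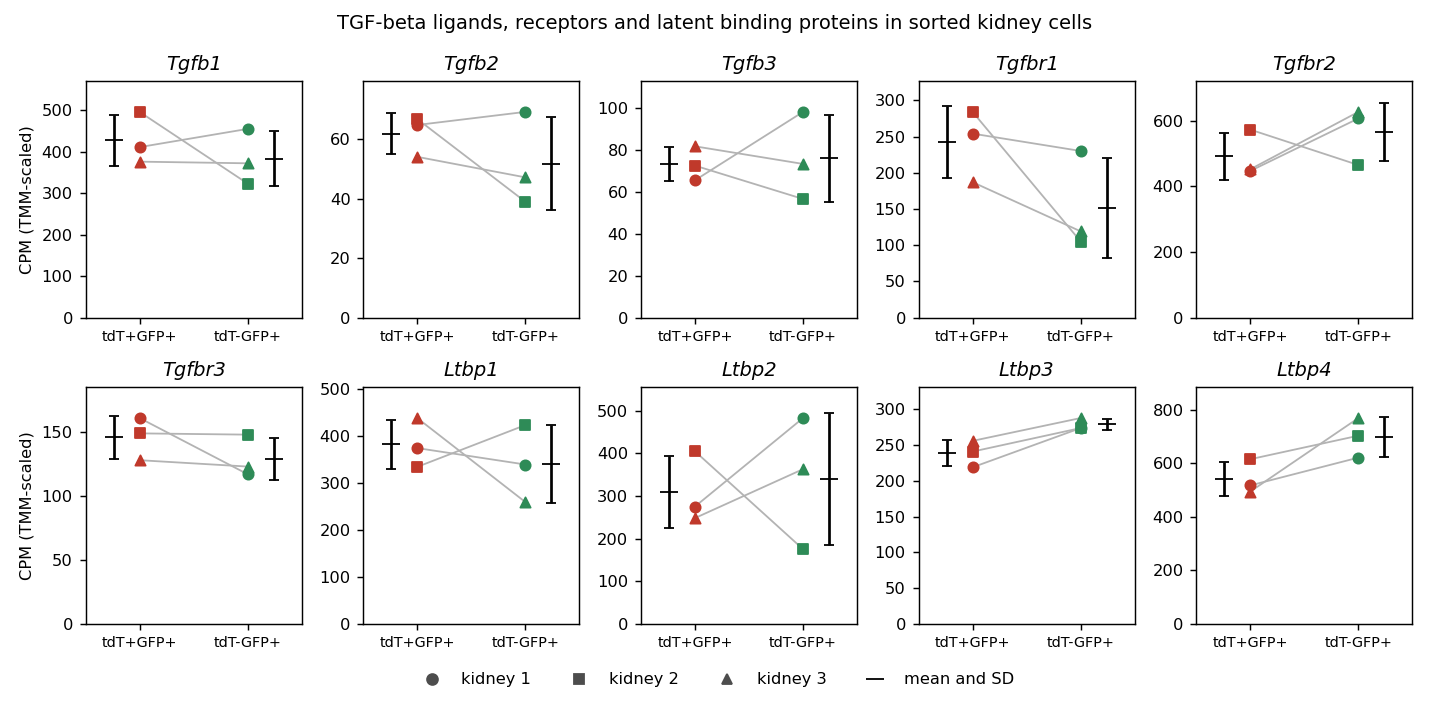
CPM of each gene in the 6 libraries, tdT+GFP+ in red and tdT-GFP+ in green, with a line joining the libraries of 1 kidney and the mean and SD of each sort (n = 3). Tgfbr1 and Tgfbr3 fall along all 3 lines from tdT+GFP+ to tdT-GFP+, Tgfbr3 barely so in kidneys 2 and 3. Ltbp3 and Ltbp4 climb along all 3. The 3 ligand genes, Tgfbr2, Ltbp1 and Ltbp2 have lines in both directions.

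The signalling receptor genes had fold changes of opposite sign. Tgfbr1 (ENSMUSG00000007613.15, chromosome 4, 47353222 to 47414931, plus strand), the type I receptor kinase, stood at 254, 284 and 187 CPM in tdT+GFP+ and 230, 105 and 119 CPM in tdT-GFP+ libraries, a mean of 242 ± 49.7 against 151 ± 68.8 CPM (SD, n = 3 each). Replicates 2 and 3 of tdT-GFP+ cells lay below all other libraries, while replicate 1 lay above the lowest tdT+GFP+ library, so the sorts overlapped. The fitted log2 fold change of Tgfbr1 was 0.68 (SE 0.32, interval -0.10 to 1.45), its adjusted p 0.490 (edgeR), and kidneys 1, 2 and 3 taken singly gave 0.14, 1.44 and 0.65. Leaving out the tdT-GFP+ library of kidney 1 gave 1.13, leaving out all of kidney 1 gave 1.09, and leaving out the tdT-GFP+ library or all of kidney 2 gave 0.46 or 0.33, and the adjusted p was at least 0.138 under every alternative. Tgfbr2 (ENSMUSG00000032440.13, chromosome 9, 116084293 to 116175360, minus strand), the type II receptor kinase that binds the ligand, stood at 447, 573 and 452 CPM against 607, 465 and 627 CPM. It was lower in tdT+GFP+ cells of kidneys 1 and 3 and higher in those of kidney 2, and the sorts overlapped. In edgeR this came to -0.21 on the log2 scale (SE 0.16, interval -0.58 to 0.17, adjusted p = 0.605), and to -0.46 without kidney 2 and -0.07 without kidney 1 or kidney 3. The 2 libraries with the highest Tgfbr2, replicates 1 and 3 of tdT-GFP+ cells, also had the highest sums of endothelial markers (2147 and 2892 CPM, against 669 to 1342 CPM in the other 4). Their mural marker sums were the highest as well (1856 and 2177 CPM). The part of endothelial or mural RNA in Tgfbr2 was not tested. Tgfbr3 (ENSMUSG00000029287.14, chromosome 5, 107106570 to 107289629, minus strand), the betaglycan gene, stood at 161, 149 and 128 CPM against 117, 148 and 123 CPM. With a log2 fold change of 0.17 (SE 0.13, interval -0.13 to 0.47) its adjusted p was 0.590 in edgeR. The sign was positive in every kidney, but at 0.01 in kidney 2 and 0.06 in kidney 3 it was barely so, and the sorts overlapped.

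The balance between both signalling receptors was higher on the Tgfbr1 side in every tdT+GFP+ library. For each count of Tgfbr2 there were 0.567, 0.496 and 0.414 counts of Tgfbr1 in the tdT+GFP+ libraries, and 0.379, 0.225 and 0.19 in those of tdT-GFP+ cells. The sorts did not overlap, and the log2 difference was 0.58, 1.14 and 1.13 in kidneys 1, 2 and 3. This ratio does not depend on how the libraries were scaled. It was chosen after its values were seen and is given with no test. How often other pairs of genes would separate the sorts in this way was not computed. In the other 2 ratios computed, Tgfb1 per Tgfb3 (5.91 ± 1.16 against 5.15 ± 0.535) and Ltbp1 per Ltbp4 (0.718 ± 0.172 against 0.495 ± 0.14), the sorts overlapped.

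Of the latent binding protein genes, Ltbp3 and Ltbp4 had lower values in tdT+GFP+ cells of every kidney, and Ltbp1 and Ltbp2 did not. Ltbp4 (ENSMUSG00000040488.17, chromosome 7, 27305136 to 27337692, minus strand), which binds latent TGF-beta 1 and takes part in elastic fibre assembly, stood at 517, 615 and 494 CPM in tdT+GFP+ and 621, 703 and 769 CPM in tdT-GFP+ libraries. Every tdT-GFP+ library lay above every tdT+GFP+ library, although replicate 2 of tdT+GFP+ and replicate 1 of tdT-GFP+ cells were close. edgeR estimated -0.36 on the log2 scale for Ltbp4 (SE 0.13, interval -0.67 to -0.06, adjusted p = 0.442). The single kidneys gave -0.26, -0.19 and -0.64, and leaving out kidney 3 brought the estimate to -0.23. Ltbp3 (ENSMUSG00000024940.11, chromosome 19, 5740904 to 5758532, plus strand), which binds the latent form of every isoform, stood at 219, 241 and 256 CPM against 274, 274 and 288 CPM. The sorts did not overlap, and the tdT-GFP+ libraries lay within a factor of 1.05 of each other. This difference was small, at log2 -0.22 (SE 0.08, interval -0.43 to -0.02, edgeR adjusted p = 0.447), and it ran from -0.27 to -0.16 with 1 library or kidney left out. Endothelial and mural marker sums were also higher in every tdT-GFP+ library, as was the sum of 5 podocyte markers (395 to 469 against 483 to 602 CPM). The part of these cells in the values of Ltbp3 and Ltbp4 was not tested.

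Ltbp1 and Ltbp2 followed no common direction. Ltbp1 (ENSMUSG00000001870.16, chromosome 17, 75005568 to 75392512, plus strand), the main carrier of latent TGF-beta in matrix, stood at 374, 334 and 438 CPM in tdT+GFP+ and 339, 423 and 259 CPM in tdT-GFP+ libraries. It was higher in tdT+GFP+ cells of kidneys 1 and 3 and lower in those of kidney 2. Its estimate of 0.17 (log2, SE 0.20, interval -0.30 to 0.63, edgeR adjusted p = 0.731) rested on kidney 3 and was -0.11 without it. Ltbp2 (ENSMUSG00000002020.15, chromosome 12, 84783212 to 84876532, minus strand), a fibrillin-binding protein of microfibrils that does not bind latent TGF-beta, stood at 275, 405 and 248 CPM against 483, 175 and 363 CPM. Its values spanned a factor of 2.76 among the tdT-GFP+ libraries alone, the widest span of the 10 genes. Its estimate was -0.14 (log2, SE 0.38, interval -1.04 to 0.77, edgeR adjusted p = 0.893), and kidney 2 went the other way from kidneys 1 and 3 (1.21 against -0.81 and -0.55 on the log2 scale). It was -0.70 without kidney 2, 0.30 without kidney 1 and 0.05 without kidney 3, and single libraries also turned its sign: 0.22 with the tdT-GFP+ library of kidney 1 left out, 0.01 with the tdT+GFP+ library of kidney 3 left out.

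Levels of different genes were compared as CPM per kilobase of gene length, with the union of the annotated exons as the length. Ltbp4 had the highest mean over the 6 libraries, 95.9 ± 16.3 CPM per kb (SD, n = 6), followed by Tgfb1 at 80.4 ± 12.4 and Tgfbr2 at 64.6 ± 10.1. Ltbp4 was above Tgfb1 in 4 of 6 libraries and Tgfb1 above Tgfbr2 in 5 of 6, so these neighbours were not cleanly ordered. The order of the first pair also differed by sort, with Tgfb1 at 84.8 and Ltbp4 at 83.9 CPM per kb in tdT+GFP+ cells and 76.0 against 108 in tdT-GFP+ cells. Below them, Tgfbr2 was above Ltbp2 in all 6 libraries. A middle group of Ltbp2 (39.7 ± 13.8), Ltbp1 (33.8 ± 6.15), Tgfbr1 (30.1 ± 11.2) and Ltbp3 (28.5 ± 2.79 CPM per kb) had overlapping ranges. Ltbp3 was above Tgfb3 (22.0 ± 4.21) in 6 of 6 libraries, Tgfb3 was above Tgfbr3 (21.0 ± 2.66) in 3 of 6, and Tgfb2 was lowest at 9.8 ± 2.09 CPM per kb. Gene length matters for this order. With the longest coding transcript in place of the exon union (2.17 in place of 5.04 kb for Tgfb1), Tgfb1 came first at 186 CPM per kb and Ltbp4 second at 115.

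Within the ligands, Tgfb1 made up 68.8% to 74.9% of the per-length sum in the 6 libraries, Tgfb3 16.3% to 22.3% and Tgfb2 7.69% to 9.98%. With the longest coding transcript as the length the Tgfb1 share was 83.1% to 86.9%. The ligand shares were close in both sorts, with 72.2% ± 2.97 against 71.1% ± 2.19 for Tgfb1 (SD, n = 3 each, exact permutation p = 0.7, two-sided). Among the receptors, Tgfbr2 held 46.3%, 51.4% and 53.4% of the sum in the tdT+GFP+ libraries, against 58.3%, 59.5% and 67.5% in the others. The sorts did not overlap, and the means differed by -11.4 percentage points (p = 0.1 in the two-sided exact permutation test, below which 3 libraries against 3 cannot go, and 0.6 when adjusted over the 10 shares tested). The Tgfbr1 share was 32.9%, 31.9% and 27.7% against 27.7%, 16.8% and 16.0%, higher in tdT+GFP+ cells of all 3 kidneys but with a mean difference of 10.7 points that did not pass (exact permutation p = 0.2, two-sided). Tgfbr3 held 18.8% ± 2.04 against 18.1% ± 5.04. Among the latent binding proteins Ltbp4 held the largest share in every library, with 45.6% ± 1.89 for tdT+GFP+ cells against 51.0% ± 5.8 (exact permutation p = 0.3, two-sided). The summed level of the latent binding protein genes was 184 ± 16.3 against 212 ± 10.5 CPM per kb, that of the ligand genes 117 ± 12.4 against 107 ± 22.1 and that of the receptor genes 119 ± 16.5 against 112 ± 16.0.

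**Figure D3:**
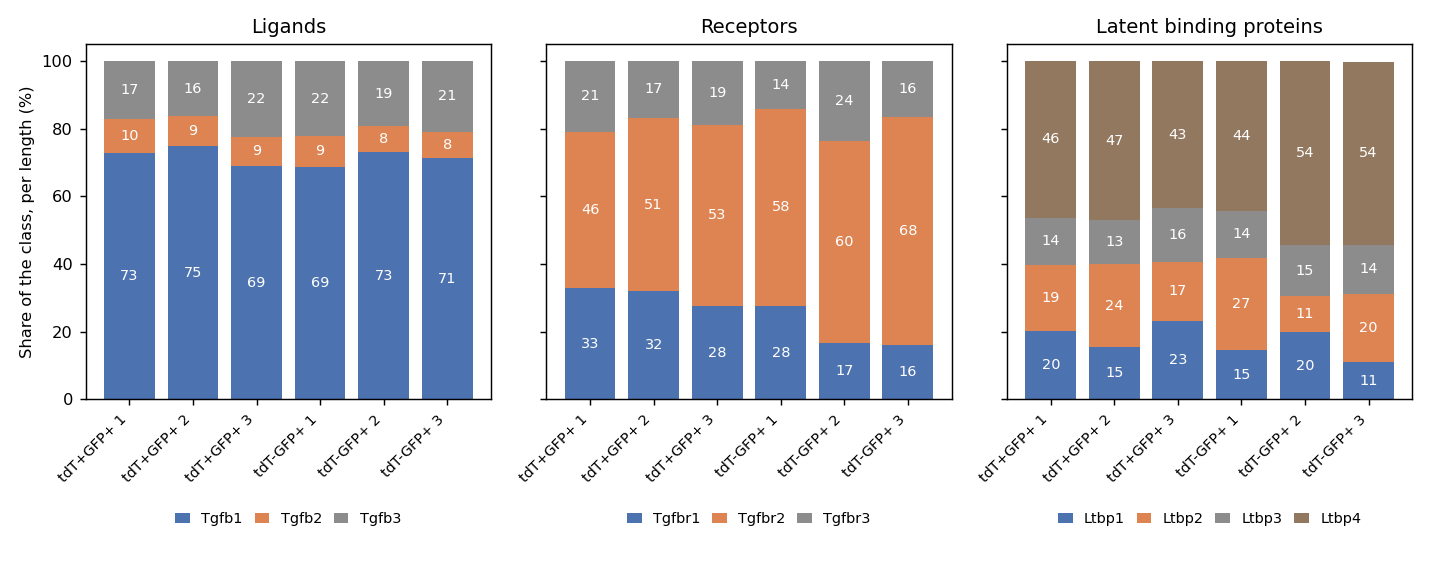
Share of each gene in the per-length sum of its class in each library, in percent, with stacked bars that add up to 100. The ligand bars look alike in all 6 libraries, and the Tgfbr2 segment is larger in each tdT-GFP+ library (58.3% to 67.5%) than in any tdT+GFP+ library (46.3% to 53.4%).

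Several of the genes varied with each other from library to library, a pattern that includes any difference between the sorts. Both tdT+GFP+ replicates 1 and 2 and the first tdT-GFP+ replicate lay above the mean in Tgfb1, Tgfb2 and Tgfbr1, and the other two tdT-GFP+ replicates lay below it. Over the 6 libraries, log2 CPM of Tgfbr1 correlated with that of Tgfb2 by 0.96 and of Tgfb1 by 0.89, but with that of Tgfbr2 by 0.03 (Pearson r, n = 6). These points share kidneys and library scaling, and the values are descriptions. The ratio of the highest to the lowest of the 6 libraries, which includes any difference between the sorts, was 1.31 to 2.76 for the 10 genes. All 10 lay above the median of 1.27 over the 3542 genes at least as abundant as the lowest of them. The upper quartile over those genes was 1.47, and Ltbp3 (1.31), Tgfbr3 (1.38) and Tgfbr2 (1.4) lay below it. Long genes shared part of the pattern in direction, with a median deviation of 0.0355, 0.0488 and -0.0161 for tdT+GFP+ and 0.0511, -0.0965 and -0.0211 for tdT-GFP+ cells over 2427 genes with a coding transcript of 5 kb or more. The part of transcript length in the differences of Tgfbr1 was not tested. Macrophage marker sums were highest in replicate 2 of tdT+GFP+ cells and lowest in replicate 2 of tdT-GFP+ cells (1867 and 491 CPM), the libraries that were also highest and lowest in Tgfb1 and Tgfbr1, and their part in these values was not tested.

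**Figure D4:**
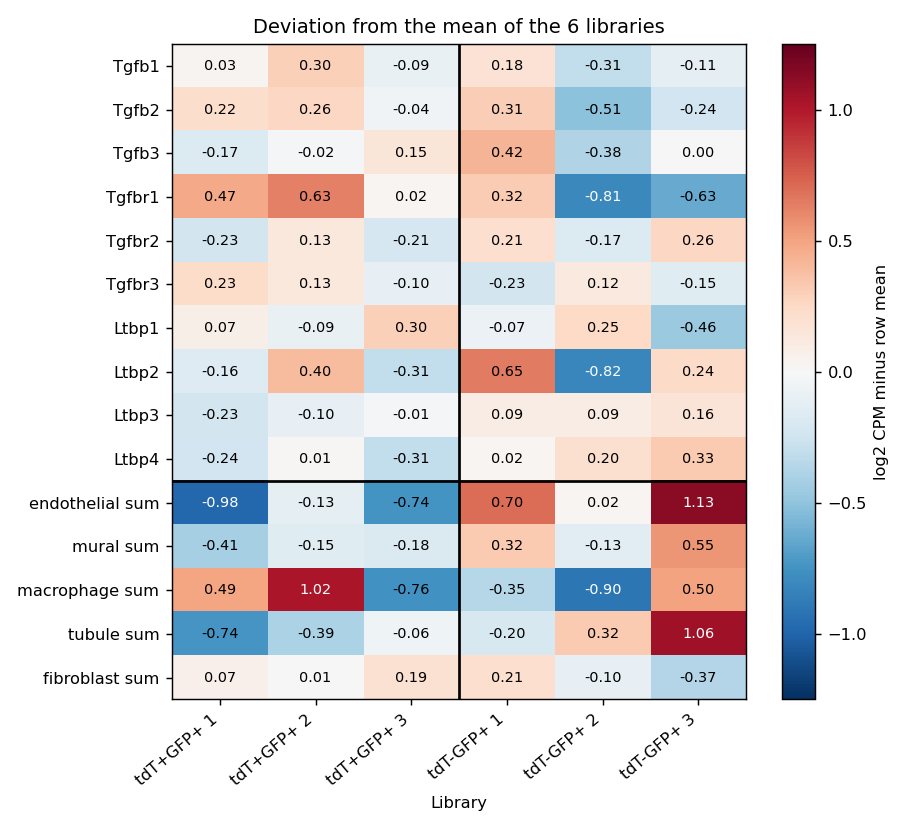
Deviation of log2 CPM from the mean of the 6 libraries for each gene (upper rows) and for the summed CPM of 5 marker lists (lower rows), with red above and blue below the mean. Replicate 2 of tdT-GFP+ cells is low in Tgfbr1 (-0.81), Ltbp2 (-0.82) and Tgfb2 (-0.51), and the endothelial sum runs from -0.98 to 1.13.

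The gene most like each of the 10 over the 6 libraries, among 9692 others with a mean of at least 10 CPM, was Gna13 for Tgfb1, Dpagt1 for Tgfb2, Gtf3c4 for Tgfb3, Med13 for Tgfbr1, Sfrp4 for Tgfbr2, Spry2 for Tgfbr3, Gpx8 for Ltbp1, Xiap for Ltbp2, Fbxo9 for Ltbp3 and Anks1 for Ltbp4. Pearson r ran from 0.9865 for Anks1 to 0.9996 for Med13. With 6 points such values are common: between 22 (Tgfb3) and 472 (Tgfbr1) genes had an r above 0.95. Pearson r compares the pattern over the libraries and not the size of the changes. Sfrp4 ran from 4.85 to 41.2 CPM where Tgfbr2 ran from 447 to 627. Med13 ran from 100 to 135 CPM where Tgfbr1 ran from 105 to 284.

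The other genes of the pathway, held in 4 lists of 67 genes that were all tested, also had no member past the adjusted threshold in edgeR, where 4 were higher and 4 lower at an unadjusted p under 0.05, beside 3.71% and 6.97% of all genes. The sorts did not overlap in 4 of the 67 in the higher direction and 2 in the lower, beside 7.23% and 8.6% of all genes. Of the genes named below by the rule, these were Ppm1a and Tgfbi (higher) and Tab1 and Cdkn1a (lower). Of 20 latency and activation genes, 11 had a positive sign and 9 a negative one (median log2 0.04). Thbs1, whose product thrombospondin-1 can activate latent TGF-beta, stood at 3400, 3266 and 2594 CPM in tdT+GFP+ and 2765, 1456 and 1520 CPM in tdT-GFP+ libraries. It was higher in tdT+GFP+ cells of all 3 kidneys, with sorts that overlapped (log2 fold change 0.69, SE 0.28, adjusted p = 0.456 in edgeR). DESeq2 called it when the kidney was a block, at an adjusted p of 0.0218, but not otherwise (0.209). The library order of Thbs1 resembled that of Tgfbr1, with replicates 2 and 3 of tdT-GFP+ cells lowest in both. Lrrc32, which encodes the latent TGF-beta docking protein GARP, had 480 ± 11.9 against 377 ± 79.3 CPM (0.35 on the log2 scale, SE 0.15), and the integrin gene Itgav, whose dimers release the ligand, had 347 ± 50.3 against 270 ± 60.6 CPM (0.36, SE 0.19, and 0.10 to 0.53 with libraries left out). The gelatinase gene Mmp9 had 45.5 ± 10.8 against 67.8 ± 14.2 CPM (-0.58, SE 0.22).

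Among 14 co-receptor and receptor regulator genes, 7 were positive and 7 negative (median 0.02). Cd109, which encodes a TGF-beta-binding membrane protein that promotes receptor breakdown, stood at 10.6, 10.1 and 20.4 against 23.2, 28.7 and 18.8 CPM (log2 fold change -0.79, SE 0.31, adjusted p = 0.453, edgeR). The endocytic adaptor gene Dab2 had 170 ± 48.1 against 123 ± 25.2 CPM, the endothelial type I receptor gene Acvrl1 93.2 ± 7.78 against 104 ± 8.14 CPM and the receptor-associated protein gene Tgfbrap1 55.2 ± 4.44 against 50.6 ± 1.98 CPM. Of 13 Smad and nuclear regulator genes 6 were positive and 7 negative (median -0.03). Smad3, the receptor-activated Smad, stood at 104, 103 and 111 against 111, 108 and 116 CPM (-0.08, SE 0.07, adjusted p = 0.646, edgeR). The Smad corepressor gene Ski had 250 ± 6.09 against 268 ± 14.5 CPM, the phosphatase gene Ppm1a 90.8 ± 0.299 against 86.4 ± 3.22 CPM, and Tab1, which encodes a partner of the TAK1 kinase, 15.8 ± 1.75 against 20.7 ± 4.38 CPM.

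Of 20 target genes, 15 had a positive sign and 5 a negative one, with a median log2 fold change of 0.22, where 49.9% of all genes tested were positive. Marker lists moved beside it: 9 of 10 fibroblast and myofibroblast markers were positive (median log2 0.14) and all 12 endothelial markers negative, and their part in the target genes was not tested. The interleukin gene Il11, a cytokine induced by TGF-beta in fibroblasts, stood at 54.1, 70.2 and 19.7 CPM in tdT+GFP+ and 23.1, 19.3 and 20.2 CPM in tdT-GFP+ libraries. Only replicates 1 and 2 of tdT+GFP+ cells stood above the rest (log2 fold change 1.2, SE 0.42, adjusted p = 0.442, edgeR). Tgfbi, the gene of a TGF-beta-induced matrix protein, stood at 225, 253 and 177 against 173, 163 and 172 CPM and did not overlap between the sorts (0.37, SE 0.13, adjusted p = 0.444, edgeR). The cell cycle inhibitor gene Cdkn1a went the other way, at 63.3, 58.5 and 62.1 against 65.9, 84.6 and 98.0 CPM, and did not overlap either. Its log2 fold change was -0.43 (SE 0.14, adjusted p = 0.438, edgeR). The lipase inhibitor gene Angptl4 was lower too, with sorts that overlapped, at 52.9 ± 16.1 against 84.6 ± 15.6 CPM (-0.68, SE 0.23). The lists were chosen with earlier results of these libraries known, and the median of the target list was 0.39 without kidney 1 or its tdT-GFP+ library, 0.07 without kidney 3 and 0.09 without the tdT-GFP+ library of that kidney.

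**Figure D5:**
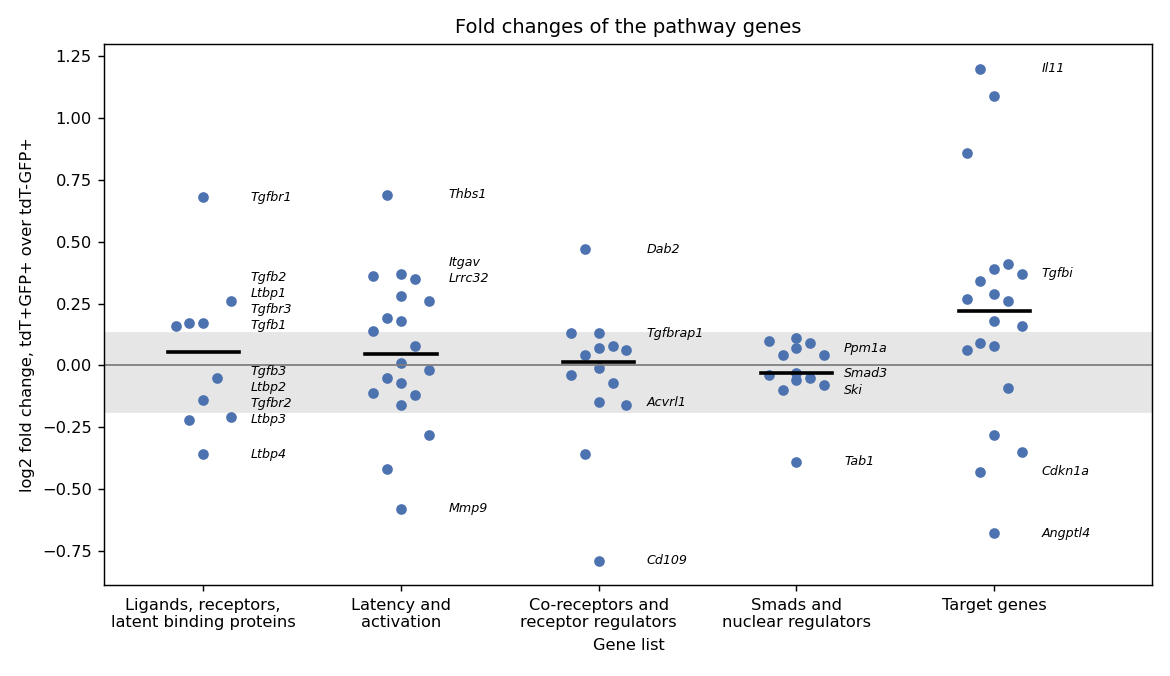
Log2 fold change of every tested gene in the 5 groups of pathway genes, with the median of each group as a black line and the middle 50% of all genes tested as a grey band (-0.19 to 0.13). The Smad and nuclear regulator genes lie within or near the band except Tab1, and the target genes spread from Angptl4 at -0.68 to Il11 at 1.2.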

How the data were processed

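RNA was measured in 6 libraries of sorted kidney cells, in 2 groups of 3 that the labels call biological replicates. The deposited values are estimated counts per gene (RSEM gene results, per the file headers and processing notes) and were already whole numbers. Named in the submitters' processing notes are RSEM 1.2.28, STAR 2.6.1, bcl2fastq 2.20, R 3.6.3, DESeq2 1.26.0 and the builds mm10 and GRCh38, with no role. No source used here gives the annotation release or says if reads were assigned by strand. 92 spike-in rows, all 0, were left out. Of 31815 gene identifiers, 31748 were found in GENCODE M21 (GRCm38), the source of coordinates and lengths.

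After filterByExpr and TMM scaling, the quasi-likelihood test of edgeR 4.0.16 (glmQLFit, robust, then glmQLFTest; R 4.3.3) was run with the group alone in the model, Benjamini-Hochberg adjustment over 15462 genes and a threshold of 0.05. SEs were taken from the coefficient and its F value. Shares were compared with two-sided exact permutation tests over the 6 libraries, without regard to kidney. Log2 CPM used a prior count of 2. The edgeR, DESeq2 and limma-voom fits were also run on simulated counts with known changes. That simulation had no differences between kidneys or in cell mixture and did not cover the share tests. Alternatives were 2 other scalings, 2 other filters, DESeq2 1.42.0, limma-voom 3.58.1, the kidney as a block, other gene lengths, and leaving out each library or kidney.

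Named genes were the 10 members, Axin2, the 4 of each pathway list with the smallest p, and for each member the gene with the highest r. Acta2, which the rule also names, is given in the closing section. The members and lists were chosen with earlier results of these data known. Per the labels, each kidney number names the shared source of 2 libraries, which pairs them. Their deviations from the group means correlated by 0.0385, -0.578 and -0.304 for kidneys 1, 2 and 3, while those of tdT+GFP+ replicate 2 and tdT-GFP+ replicate 3 correlated by 0.448 and those of tdT+GFP+ replicate 3 and tdT-GFP+ replicate 2 by 0.444. Values per kidney rest on the labels' numbers.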

Additional observations from a re-analysis of the deposited data

How the results depend on the processing

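In edgeR and limma-voom no fit called any gene at an adjusted p under 0.05. DESeq2 made 15 calls of higher and 247 of lower expression, and when the kidney was added as a block these became 40 and 236, none of them among the 10. That block fit called 1 latency and activation gene, Thbs1, against 0 in edgeR. With the kidney as a block in edgeR, Tgfbr1 had 0.74 (adjusted p = 0.601), and the block changed no edgeR call. With libraries or kidneys left out, log2 fold changes ran from -0.08 to 0.34 for Tgfb1, 0.02 to 0.54 for Tgfb2, -0.23 to 0.27 for Tgfb3, 0.33 to 1.13 for Tgfbr1, -0.46 to -0.07 for Tgfbr2, 0.05 to 0.28 for Tgfbr3, -0.11 to 0.44 for Ltbp1, -0.70 to 0.30 for Ltbp2, -0.27 to -0.16 for Ltbp3 and -0.47 to -0.23 for Ltbp4. The median of the target list ran from 0.07 to 0.39. Share differences were recomputed with single libraries left out, not with whole kidneys. In percentage points they ran from -0.196 to 2.74 for Tgfb1, -1.33 to 3.51 for Tgfbr3, -3.34 to 4.92 for Ltbp2 and -0.953 to 0.502 for Ltbp3, and the other 6 kept their sign. With the longest coding transcript, levels were 186 for Tgfb1, 54.1 for Ltbp1, 49.9 for Ltbp3 and 115 CPM per kb for Ltbp4. The causes were not tested. The spread between 3 libraries, not depth, limits what these comparisons can show.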

Other observations

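Other genes of the target list had wide differences outside the rule for named genes, and they were chosen after their values were seen. The hyaluronan synthase gene Has2 stood at 20.6, 25.7 and 10.6 CPM in tdT+GFP+ and 14.1, 5.61 and 7.01 CPM in tdT-GFP+ libraries (log2 fold change 1.09, SE 0.44, adjusted p = 0.459, edgeR). The matricellular gene Ccn2 stood at 903, 1034 and 471 against 656, 307 and 366 CPM (0.86, SE 0.38, adjusted p = 0.476, edgeR). In both the tdT-GFP+ libraries 2 and 3 were the lowest, as in Tgfbr1. Acta2, the gene behind the GFP, stood at 1577, 1416 and 1747 against 1588, 944 and 943 CPM (0.45, SE 0.23, adjusted p = 0.499, edgeR), with the same 2 libraries lowest.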
